A study of Mus musculus with 9 samples.

Results

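The comparison set RNA recovered with YTHDF2 by RNA immunoprecipitation (RIP) against RNA of the insoluble fraction of 22-month-old mice, both prepared from mPFC, the medial prefrontal cortex, of C57BL/6 animals. Its members were all 194 genes with a name in the deposited RIP table, of 237 genes listed in the series. Each group had 3 libraries, and the third group of the series, overexpression of YTHDF1 and YTHDF2, is not part of the comparison. The labels give an age for the insoluble group (22 months) and none for the RIP group. They do not say how the insoluble fraction was prepared, which antibody was used, whether animals were pooled, or whether replicates came from separate animals, so p-values measure the spread between these libraries, which may be technical. No input or control immunoprecipitation library was used here. A gene higher in RIP was therefore higher relative to the insoluble fraction, and enrichment over the starting RNA was not measured. If age differed between the groups, age and kind of library cannot be told apart.

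YTHDF2 is a cytoplasmic reader protein that binds N6-methyladenosine (m6A), the most common internal modification of mRNA, through its YTH domain. It recruits deadenylases and other decay factors to the transcripts it binds, and it can enter RNA granules through its disordered regions. RNA immunoprecipitation pulls a protein down with an antibody and sequences the RNA that comes with it. The insoluble fraction of a tissue extract holds RNA that pellets with large assemblies, among them protein aggregates, cytoskeleton and poorly lysed structures. The design asked which RNAs differed in abundance between these preparations of cortical RNA.

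Values are raw counts of reads per gene. Over the listed genes they summed to between 61610 and 71736 in the insoluble libraries and to between 79389 and 83620 in the RIP libraries. These sums cover a chosen list and not whole libraries, so sequencing depth is unknown, and all scaling rested on the listed genes. The RIP libraries differed from one another more than the insoluble libraries did. The chi-square statistic of replicate counts per degree of freedom was 12.8, 5.96 and 8.24 for the RIP pairs and 1.24, 1.31 and 1.15 for the insoluble pairs, where 1 is counting error alone. In 3 genes, 1 RIP library lay more than 4-fold from the RIP median: Fis1, Snhg11 and Tie1. The coefficient of variation of a typical gene was nevertheless alike, with medians of 9.27% in RIP and 8.14% in the insoluble fraction. The lists of m6A readers and enzymes, neurons, astrocytes and oligodendrocytes had 0 members in the table, so neither the pull-down of the YTHDF2 protein nor the cortical tissue could be checked by markers.

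It is uncertain which gene name belongs to which RIP counts, and the rows concerned could not be identified. The authors' deposited fold change, whose direction is not stated, did not follow the count ratio of its own row over most of the table, with a Spearman rho across genes of 0.100 in all. The names could therefore not be checked by it, and this holds for nearly every value below. Where counts and names are displaced, a changed RNA and a displaced count cannot be told apart. Every value is given as the rows stand.

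Most listed RNAs differed between RIP and the insoluble fraction, and they went both ways in nearly equal numbers. With edgeR's quasi-likelihood test and a Benjamini-Hochberg (BH) adjusted p under 0.05 as the threshold, 162 of the 190 testable genes (85.3%) were called. Of all tested genes, 77 (40.5%) were higher in RIP and 85 (44.7%) were lower. In 167 genes (87.9%) the counts of the groups, scaled for library size, did not overlap. The count of calls says little by itself, because small shifts passed: 64 called genes differed by less than 2-fold. At least 2-fold higher were 57 genes (30%) and at least 2-fold lower were 41 genes (21.6%). At the extremes, 17 genes were at least 8-fold higher and 15 at least 8-fold lower. The median absolute log2 fold change was 1.06, and the median signed one was 0.03. Of the 4 genes that were not tested, Gm6939, Spata45, Col15a1 and Acvrl1, each was too low in the libraries. A further 6 tested genes were under 10 counts in every insoluble library (mt-Nd4l, mt-Nd4, mt-Co2, Tma7-ps, Foxl2 and Cldn5). Another 7 were under 10 in every RIP library (Gm30122, E230020A03Rik, Gm28661, mt-Cytb, Nbeal2, Dnah6 and Rps27rt). They passed the filter only through the group where they were higher, so their direction was fixed by it and their calls add no support. Other genes were under 10 counts in part of the lower group and likewise needed the higher group to pass, so their calls add no support either. They include Opa1, Fis1, Itpr3, Mypopos, Hspa12b, mt-Co3, mt-Co1, mt-Rnr2, Rpl39-ps, Usmg5 and Drd2.

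**Figure D1:**
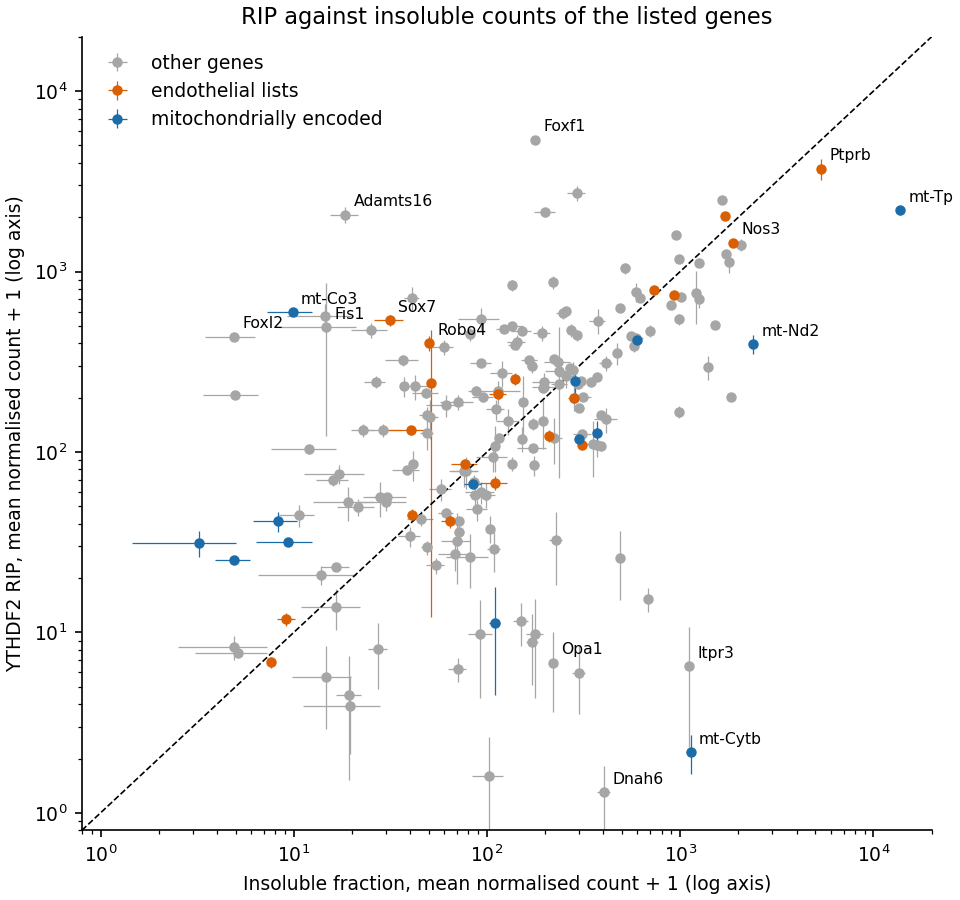
Mean normalised counts of the 194 genes in the insoluble fraction (x axis) and in YTHDF2 RIP (y axis), both as count + 1 on log axes, with SD bars over 3 libraries and a dashed line of equality. Points lie far from the line on both sides, from Adamts16 and Foxl2 above it to Dnah6, mt-Cytb and Itpr3 below it, while Ptprb and Nos3 lie near it.

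The RNAs furthest above the insoluble level were mostly protein-coding, as are 144 of the 194 listed genes, and mostly near background there. A ranking by fold change favours genes with low insoluble counts. Across the tested genes, Spearman's rho of the log2 fold change with the normalised insoluble count was -0.51. That count is itself part of the fold change. Adamts16, which encodes a secreted metalloprotease, had 15, 18 and 12 counts in the insoluble libraries and 2314, 2579 and 2160 in RIP. Its log2 fold change was 6.87 ± 0.13 (SE, 3 against 3 libraries; edgeR BH-adjusted p = 5.86e-10). Foxl2, a forkhead transcription factor of the ovary, had 4, 2 and 4 counts against 531, 495 and 462. All of its insoluble libraries were within a few counts of 0, and all RIP libraries were far above them. Foxf1, a forkhead factor of vascular and visceral mesenchyme, was already countable in the insoluble fraction, at 162, 149 and 141. It reached 6360, 6105 and 5942 counts in RIP, a log2 fold change of 4.94 ± 0.05, and was the most abundant listed gene there, with 7.48% of the normalised counts.

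Hspa12b, an endothelial member of the heat shock protein 70 family, rose from 10, 17 and 8 counts to 550, 734 and 654, a log2 fold change of 5.37 ± 0.23. Penk, the precursor of the enkephalin peptides, rose from 28, 19 and 16 to 492, 540 and 583, a log2 fold change of 4.27 ± 0.16. Tma7-ps, a pseudogene, had a log2 fold change of 5.69. Only 31.5% of its 50-base words occur in no other gene's transcripts, so its reads cannot be assigned with certainty.

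At the other end, several RNAs that were well covered in the insoluble libraries were almost missing from RIP. Dnah6, a heavy chain of axonemal dynein in motile cilia, had 341, 373 and 321 insoluble counts against 0, 1 and 0. Set against the floor of 3 counts per library, its RIP level was at least 153-fold lower. Itpr3, an inositol trisphosphate receptor that releases calcium from the endoplasmic reticulum, fell from 973, 993 and 903 counts to 12, 4 and 3. The log2 difference was -7.62 ± 0.25, and it moved to -8.42 without RIP replicate 1, which held the 12 counts. These RIP counts are so low that the size of the change rests on a few reads, while the groups were far apart in every library.

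The antisense transcripts Ict1os and Mypopos were also among the lowest. Ict1os fell from 624, 587 and 538 counts to 18, 13 and 18, and Mypopos from 156, 159 and 126 to 12, 4 and 11. Their log2 fold changes were -5.56 ± 0.12 and -4.42 ± 0.26. Whether the counting used strand is not given in the sources used here. Exons of other genes, on either strand, cover 0.19% of the exonic bases of Ict1os and 4.04% of those of Mypopos. Only within these small overlaps can exonic reads of the antisense gene and of another gene not be told apart. Reads from the introns of a partner gene were not examined.

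The genes of mitochondrial shape gave opposite results. Mitochondria fuse and divide continuously: Opa1 encodes a dynamin-like GTPase that fuses inner membranes and holds cristae together, and Fis1 encodes an outer-membrane adaptor linked to fission. They were the members of a list of 45 mitochondrial dynamics and mitophagy genes whose symbols matched the table's. Opa1 (chromosome 16, 29579334 to 29654884, plus strand, GRCm38) had 193, 186 and 181 counts in the insoluble libraries and 11, 4 and 5 in RIP. All RIP libraries were below all insoluble ones, and the log2 fold change was -5.19 ± 0.26 (edgeR BH-adjusted p = 2.16e-07). Fis1 (chromosome 5, 136953275 to 136966234, plus strand) had 17, 14 and 5 counts in the insoluble libraries and 871, 76 and 752 in RIP. Replicate 2 was far below the other RIP libraries and still above every insoluble library. The log2 fold change of Fis1 was 5.14 ± 0.92 (edgeR BH-adjusted p = 0.000769), and 5.66 without RIP replicate 2. The SE of Fis1 was thus several times that of the other genes named at this end. Opa1 and Fis1 each needed the group where they were higher to pass the filter, so their calls add no support.

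The methyltransferase complex that writes m6A prefers a GGAC core, in which the A is methylated. To show what such a core looks like in RNAs at both extremes, a GGAC of the longest coding transcript is printed with its flanks, 5′ to 3′, with the core in capitals. It is the first whose printed window lies within the coding sequence and within a single exon. The sequences are GRCm38 transcripts of GENCODE M21.
Adamts16 (chr13:70841339-70841359, minus strand): tgcgccctgGGACtcgcagct
Fis1 (chr5:136963091-136963111, plus strand): atacaatgaGGACatccgcag
Itpr3 (chr17:27057609-27057629, plus strand): tcacatcggGGACattgtgtc
Opa1 (chr16:29586143-29586163, plus strand): cccaactaaGGACaccatttc
The coding sequence held 27 such cores in Adamts16, 5 in Fis1, 70 in Itpr3 and 7 in Opa1. GGAC is common: 85.0% of annotated genes hold it in their longest transcript, on the transcript's strand. These letters are a description, and no methylation was measured here.

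**Figure D2:**
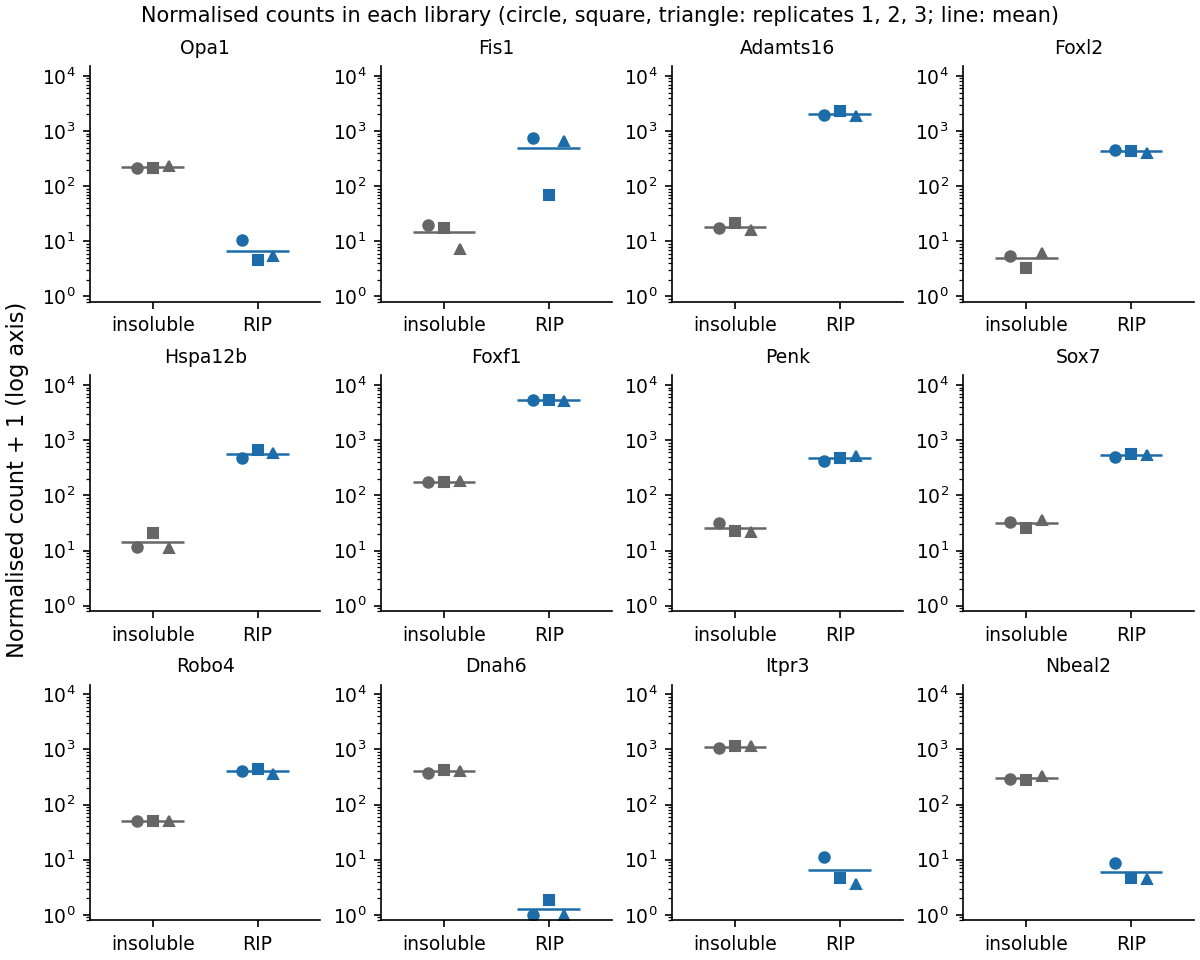
Normalised count + 1 (log axis) in each insoluble (grey) and RIP (blue) library for 12 genes, with circle, square and triangle for replicates 1, 2 and 3 and a line at the mean. RIP replicate 2 stands apart for Fis1, and the groups do not overlap in any of the panels.

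The mitochondrial genome encodes subunits of respiratory complexes I, III, IV and V and the RNAs that translate them. Its strands are transcribed as long precursors that are cut at the tRNAs, and its mRNAs lie inside the organelle, away from cytoplasmic YTHDF2. All 14 mitochondrially encoded genes of the table were tested, and 5 were higher in RIP, 8 were lower and 1 was not called. Their median log2 fold change was -0.43, against 0.03 over all tested genes. Of all tested genes, 85.3% were called, 40.5% higher in RIP and 44.7% lower, and the mitochondrial lists are to be read against these shares. Summed over the 14 genes, normalised counts were between 18888 and 19130 in the insoluble libraries and between 4195 and 4417 in RIP. Most of this sum was 1 gene, the proline tRNA gene mt-Tp, with 12767, 11916 and 10798 raw counts in the insoluble libraries and 2453, 2607 and 2417 in RIP. Its log2 fold change was -2.65 ± 0.06, and it made up 17.7% of normalised insoluble counts of the listed genes.

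Complex I, which feeds electrons from NADH into the respiratory chain, had 6 members in the table. There, 2 were higher in RIP, 3 were lower and 1 was not called, with a median of -0.36. mt-Nd2 fell from 2183, 1960 and 1964 counts to 458, 390 and 506, a log2 fold change of -2.59 ± 0.09. mt-Nd5 was close to level, with 550, 496 and 485 counts against 485, 468 and 477 and a log2 fold change of -0.51 ± 0.06. These are the called members of complex I that share little sequence with other genes, with 91.8% and 92.4% of their words unique. mt-Nd3, of which 2.01% is unique, had a log2 fold change of -1.35 ± 0.10. mt-Nd1, which is wholly unique, had 261, 255 and 217 counts against 248, 343 and 253. Its log2 fold change of -0.20 was not called (edgeR BH-adjusted p = 0.218), but was called at -0.37 without RIP replicate 2 (adjusted p = 0.00724).

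The complex I genes that were higher in RIP had hardly any insoluble reads and passed the filter only through RIP, so the count of 2 is a description. mt-Nd4 had 3, 3 and 4 insoluble counts against 29, 28 and 26 in RIP, and mt-Nd4l had 4, 1 and 1 against 40, 36 and 28. Their log2 fold changes were 2.60 ± 0.24 and 3.64 ± 0.38, the latter 4.56 without insoluble replicate 1. Unique words made up 37.8% of mt-Nd4 and 1.21% of mt-Nd4l.

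Complexes III, IV and V, which pass electrons to oxygen and make ATP, had 5 members. All were called, against 85.3% of all tested genes, with 2 higher, 3 lower and a median of -1.55. The subunits of cytochrome c oxidase, complex IV, did not move together. mt-Co3 rose from 8, 10 and 5 counts to 696, 654 and 676, a log2 fold change of 6.03 ± 0.15. mt-Co2 rose from 9, 5 and 5 to 52, 47 and 39, a log2 fold change of 2.43 ± 0.24. mt-Co1 fell from 93, 97 and 90 to 10, 5 and 20, a log2 fold change of -3.40 ± 0.32, and -4.02 without RIP replicate 3. All 3 share much sequence with other genes, with 0.136%, 0.00% and 48.9% of words unique in mt-Co3, mt-Co2 and mt-Co1.

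The complex III subunit mt-Cytb, which is wholly unique, differed most. Its 1096, 929 and 895 insoluble counts stood against 1, 2 and 1 from the immunoprecipitates, so it was at least 430.4-fold lower. mt-Atp6, an ATP synthase subunit of which 0.475% is unique, had 355, 308 and 295 counts against 175, 125 and 135, a log2 fold change of -1.55 ± 0.13. mt-Co1, mt-Co2, mt-Co3 and mt-Cytb each needed the group where they were higher to pass the filter, so the counts of higher and lower members are a description. Neighbouring mRNAs cut from the same precursor had opposite signs in these rows. The neighbours mt-Co1, mt-Co2, mt-Atp6 and mt-Co3 share much sequence with other genes, so their reads cannot be assigned with certainty.

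The ribosomal RNAs of the mitochondrion, usually among its most abundant transcripts, had few counts in both groups. mt-Rnr2, the large-subunit rRNA, had 10, 8 and 4 insoluble counts against 35, 36 and 34, a log2 fold change of 1.83 ± 0.23. mt-Rnr1, the small-subunit rRNA, had 75, 80 and 60 against 77, 77 and 71. Its log2 fold change of -0.34 was called (edgeR BH-adjusted p = 0.0397) but lost the call without RIP replicate 1 or 3 or insoluble replicate 1 or 2, with adjusted p from 0.0725 to 0.158. Of the 7 mitochondrially encoded genes with at least 50% unique words, 1 was higher in RIP and 5 were lower. Of the 7 with fewer unique words, 4 were higher and 3 lower. Among all tested genes, 40.5% were higher and 44.7% lower. In this split mt-Rnr2, mt-Cytb, mt-Co1, mt-Co2, mt-Co3, mt-Nd4 and mt-Nd4l needed the group where they were higher to pass the filter. The split is therefore a description and does not show that direction follows unique sequence.

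**Figure D3:**
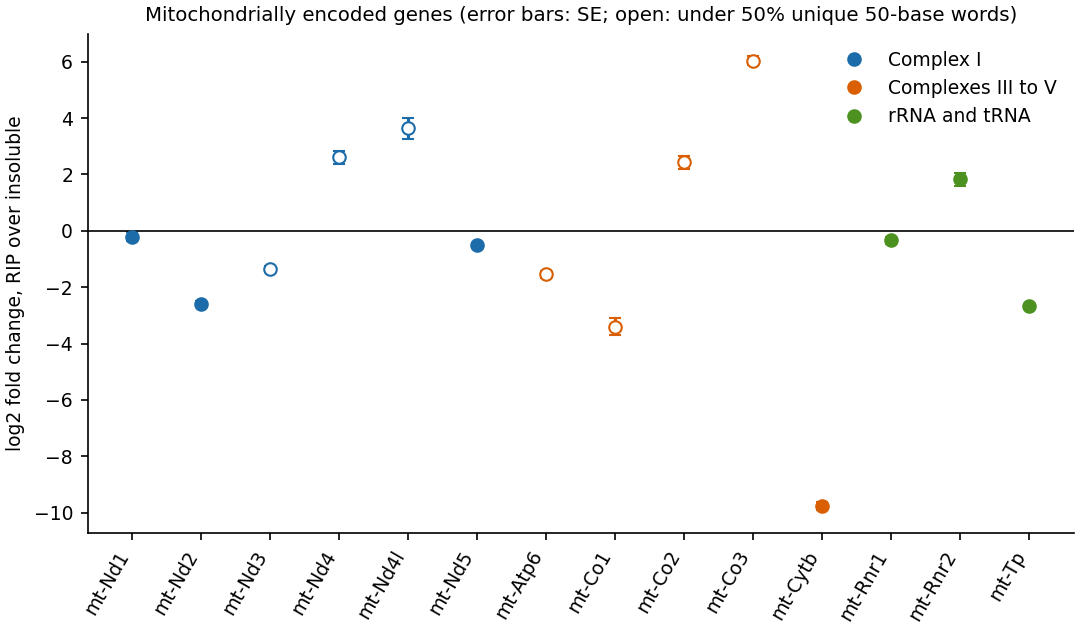
log2 fold change of RIP over insoluble (y axis) for the 14 mitochondrially encoded genes, with SE bars and colours for complex I, complexes III to V, and rRNA and tRNA. Open symbols mark genes with under 50% unique words, which include mt-Co3 at 6.03 and mt-Nd4l at 3.64, while mt-Cytb, filled, is lowest.

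Nuclear copies of mitochondrial DNA were listed as well, side by side on chromosome 1. They are described here after their values were seen. Gm10222, Gm28438, Gm28437 and Gm28661 are unprocessed pseudogenes of which at most 1.01% is unique. Gm10222 was higher in RIP, with 131, 126 and 100 counts against 470, 437 and 427, a log2 fold change of 1.49 ± 0.09. Gm28438 was also higher, with 147, 148 and 141 against 314, 361 and 343, a log2 fold change of 0.81 ± 0.10. Gm28661 was lower, with 16, 14 and 17 against 8, 2 and 2. Gm28437 was called lower at -0.35 ± 0.14, with 142, 130 and 116 against 112, 143 and 147. It lost that call without RIP replicate 1 or without any of the insoluble replicates. Reads that fit both a nuclear copy and the mitochondrial gene cannot be told apart, and how they were counted is not given in the sources used here.

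The table held many genes of blood vessel endothelium, the cells that line brain capillaries and form the blood-brain barrier. The counts of the endothelial lists are to be read against all tested genes, of which 85.3% were called, 40.5% higher and 44.7% lower. Of 6 endothelial transcription factors, all called, 4 were higher in RIP and 2 were lower, with a median of 0.87. Sox7, Sox17 and Sox18 form the SOXF family, which sets arterial and vascular fate, and all 3 were higher. Sox7 rose most, from 30, 21 and 27 counts to 575, 639 and 616, a log2 fold change of 4.14 ± 0.14. Sox17 had 126, 126 and 106 counts against 275, 310 and 283, and Sox18 had 111, 103 and 79 against 237, 251 and 225. Their log2 fold changes were 0.87 ± 0.11 and 0.88 ± 0.12.

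The ETS factors, which bind most endothelial enhancers, split. Erg rose from 31, 29 and 40 counts to 150, 156 and 141, a log2 fold change of 1.74 ± 0.18. Ets1 fell from 302, 264 and 235 to 125, 128 and 117, a log2 fold change of -1.52 ± 0.10. Gata2, a zinc finger factor of endothelium and blood progenitors, had a log2 fold change of -0.33 ± 0.06. Its raw counts, 891, 760 and 747 against 878, 865 and 798, overlapped before scaling.

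Endothelial receptors lay closer to level. Of the 9 listed, 8 were tested, and 1 was higher, 4 were lower and 3 were not called, with a median of -0.20. Robo4, an endothelial guidance receptor that stabilises vessels, was the exception, with 45, 42 and 39 counts against 467, 494 and 410. Robo4 thus had a log2 fold change of 3.03 ± 0.12. The VEGF receptors Kdr and Flt4 were lower by log2 fold changes of -0.77 ± 0.11 and -0.63 ± 0.14, Kdr with 185, 179 and 174 counts against 131, 148 and 139. Ptprb, the vascular endothelial phosphatase that acts on Tie2 and VE-cadherin, and Notch4 were lower by -0.53 ± 0.08 and -0.50 ± 0.09. All 4 differed by less than 2-fold.

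Tie1, an orphan receptor partner of Tie2, had 47, 41 and 41 counts in the insoluble libraries and 65, 693 and 56 in RIP. Its log2 fold change of 2.26 ± 0.95 was not called (edgeR BH-adjusted p = 0.0504) and rested on RIP replicate 2. Without that library it was 0.09 (adjusted p = 0.659), whereas it was called without RIP replicate 1 (adjusted p = 0.0127) or 3 (adjusted p = 0.011). Eng, a co-receptor for TGF-beta family ligands, and Cd93, a C-type lectin receptor, were not called in all libraries, and Cd93 was called at 0.15 without RIP replicate 2 (adjusted p = 0.0396).

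Among 5 genes of endothelial junctions, barrier and function, 1 was higher, 2 were lower and 2 were not called, with a median of 0.15. Cdh5, the adhesion molecule of endothelial adherens junctions, had 88, 111 and 81 counts against 84, 75 and 69, a log2 fold change of -0.71 ± 0.16. Nos3, the endothelial nitric oxide synthase, had 1740, 1571 and 1525 against 1660, 1672 and 1608, a log2 fold change of -0.38 ± 0.05. Podxl, a sialomucin of the luminal surface, was higher by 0.24 ± 0.04, with 1606, 1458 and 1353 counts against 2416, 2250 and 2262. That direction reversed under upper-quartile scaling, to -0.11 (edgeR BH-adjusted p = 0.0632). Cldn5, the main tight junction claudin of brain endothelium, was low in both groups, with 7, 8 and 6 against 13, 13 and 11. Vwf, the clotting factor carrier stored in endothelium, had 83, 59 and 55 counts against 102, 89 and 99 and was called at 0.35 only without insoluble replicate 1 (adjusted p = 0.0496).

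Markers of the cells around vessels and of blood cells also went both ways. Of 3 pericyte and smooth muscle genes, Myh11, the smooth muscle myosin heavy chain, rose from 49, 40 and 35 counts to 194, 193 and 160, a log2 fold change of 1.73 ± 0.15. Des, the muscle intermediate filament, fell by 0.66 ± 0.12 on the log2 scale. Notch3, the pericyte receptor, was not called in all libraries (log2 fold change 0.22), but was called at 0.36 without insoluble replicate 2 (adjusted p = 0.0205). The summed normalised counts of these 3 genes were between 353.95 and 407.04 in the insoluble libraries and between 452.63 and 502.07 in RIP.

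Of 5 myeloid and immune genes, all called, 3 were higher and 2 were lower, with a median of 0.92. Among all tested genes 85.3% were called, 40.5% higher and 44.7% lower, so these counts say little by themselves. Chil3, a chitinase-like protein of alternatively activated macrophages and neutrophils, rose from 74, 68 and 93 counts to 554, 702 and 616, a log2 fold change of 2.57 ± 0.18. Ngp, a neutrophil granule protein, rose by 1.08 ± 0.13, and Ly75, an endocytic receptor of dendritic cells, by 0.92 ± 0.19. Nbeal2, needed for platelet alpha-granules, went the other way, from 265, 242 and 255 counts to 9, 4 and 4, a log2 fold change of -5.87 ± 0.24. It passed the filter only through the insoluble group, so its call adds no support. Lcn2, an iron-siderophore binding protein of inflammation, fell by 0.42 ± 0.10. The summed normalised counts of the 5 genes were between 876.52 and 1018.7 in the insoluble libraries and between 1085.4 and 1178.9 in RIP. The part of blood cells in the comparison was not tested, and in bulk RNA fewer cells of a type and less RNA per cell cannot be told apart.

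All 4 cytosolic ribosomal protein genes were called, against 85.3% of all tested genes, with 2 higher, 2 lower and a median of 0.43. Of these, Rpl39-ps and Rps27rt needed the group where they were higher to pass the filter, so the counts are a description. Rps28, a small-subunit protein, rose from 207, 184 and 174 counts to 1041, 1047 and 896, a log2 fold change of 1.99 ± 0.08. Rps29, of the same subunit, fell from 53, 59 and 64 to 52, 35 and 20, a log2 fold change of -1.13 ± 0.29. The other two are retrocopies or pseudogenes that share their sequence: Rpl39-ps, 49.0% unique, had a log2 fold change of 3.19 ± 0.23, and Rps27rt, 8.92% unique, was at least 38.7-fold lower.

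Medians differed by gene type, while the share called was near that of all tested genes. Over all tested genes 85.3% were called, 40.5% higher and 44.7% lower. The share called was 84.4% of protein-coding genes, 87.8% of genes of other types and 83.8% of predicted transcripts, so these counts say little by themselves. Of 141 protein-coding genes tested, 61 were higher and 58 lower, with a median of 0.13. Of 49 genes of other types, 16 were higher and 27 lower, with a median of -0.57. Within the latter, 37 predicted, clone-named or Rik transcripts had 12 higher, 19 lower and 6 not called, and a median of -0.35. Under upper-quartile scaling all medians moved down with the median of all genes, which went from 0.03 to -0.32, and calls were then 68 higher and 96 lower. With library totals alone the median went the other way, to 0.14, with 84 higher and 78 lower. Small fold changes are relative to these shifts, and which direction is the more frequent depends on the scaling.

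**Figure D4:**
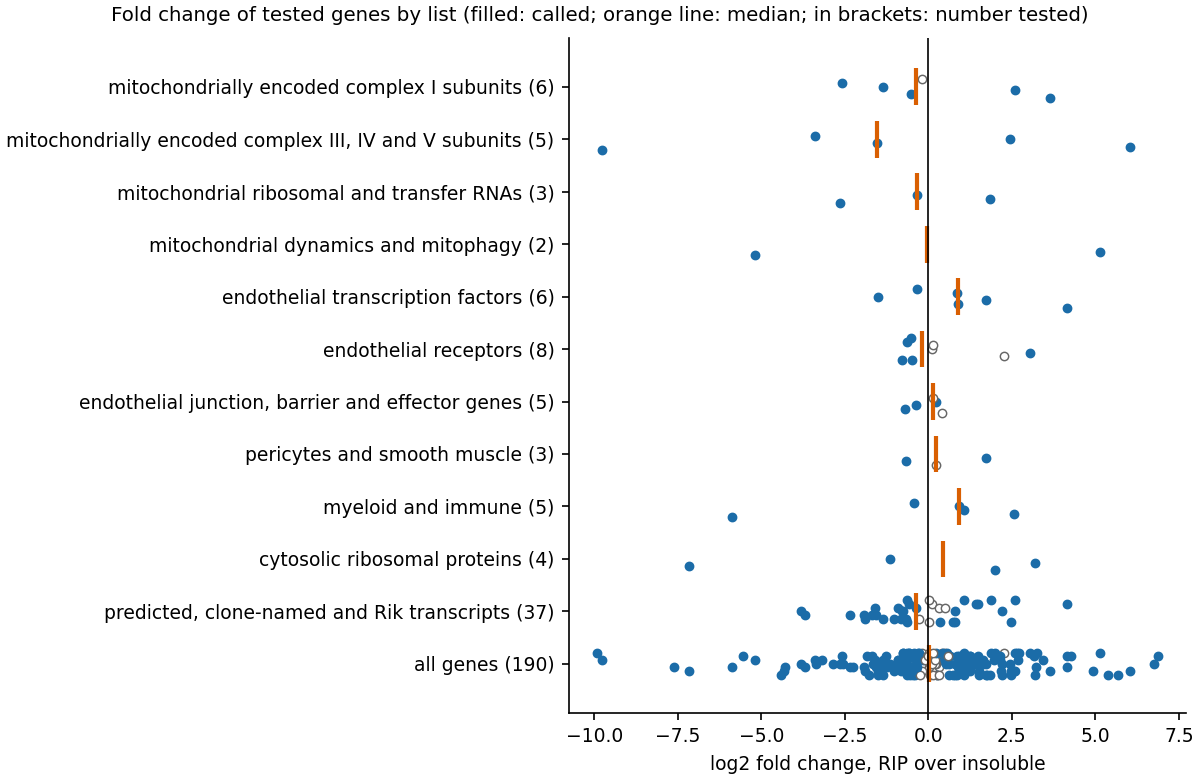
log2 fold change (x axis) of each tested gene by list, filled where called and open where not, with the list median as an orange line and the number tested in brackets. Endothelial receptors and junction genes cluster near 0 apart from Robo4 and Tie1, while mitochondrial lists spread from -9.77 to 6.03, as all genes do.

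Length, base composition and GGAC content followed the direction of change weakly. Across the 190 tested genes, Spearman's rho of the log2 fold change was -0.03 with the length of the longest transcript, 0.09 with its GC content and 0.18 with its GGAC cores per kb. Genes are not independent replicates, so no test is given. The longest transcript had a median length of 2652 bases in genes higher in RIP, 2659 in genes lower and 3723 in genes not called. GGAC density had medians of 4.49, 4.03 and 5.24 per kb in the same order, against 3.36 over all genes of the annotation. The annotation set covers 55450 genes of every type, whereas 141 of the 190 tested genes are protein-coding, so these sets are unlike. Among protein-coding genes only, the medians were 4.80, 4.51 and 5.17 per kb in the same order. Genes not called thus had the highest median density, and genes higher and lower in RIP lay close together.

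Larger differences followed the place of a gene in the table. The rows run by descending Ensembl identifier, and they were split by row into 4 blocks of near-equal size. Spearman's rho between RIP and insoluble counts across genes was 0.48, 0.17, 0.53 and 0.77 in the first to the last block. Changes of at least 2-fold were called in 27 of 47 tested genes (57.4%), 32 of 48 (66.7%), 23 of 48 (47.9%) and 16 of 47 (34.0%). The median absolute log2 fold change was 1.42, 1.81, 0.99 and 0.64. The second block, rows 49 to 97, held 6 of the 8 highest and 5 of the 8 lowest genes named above, and all 14 mitochondrially encoded genes. Endothelial genes that differed by less than 2-fold stand in several blocks, among them Ptprb, Notch4, Flt4, Podxl and Gata2 in the last, Nos3, Cdh5 and Cldn5 in the third, and Kdr in the second. Opa1 stands in the third block, and Fis1 is the highest gene of the last. The rho of the deposited fold change with the count ratio was 0.42 in the first block and -0.16, 0.19 and 0.06 in the others. Whether displaced names play a part in the second block was not tested.

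**Figure D5:**
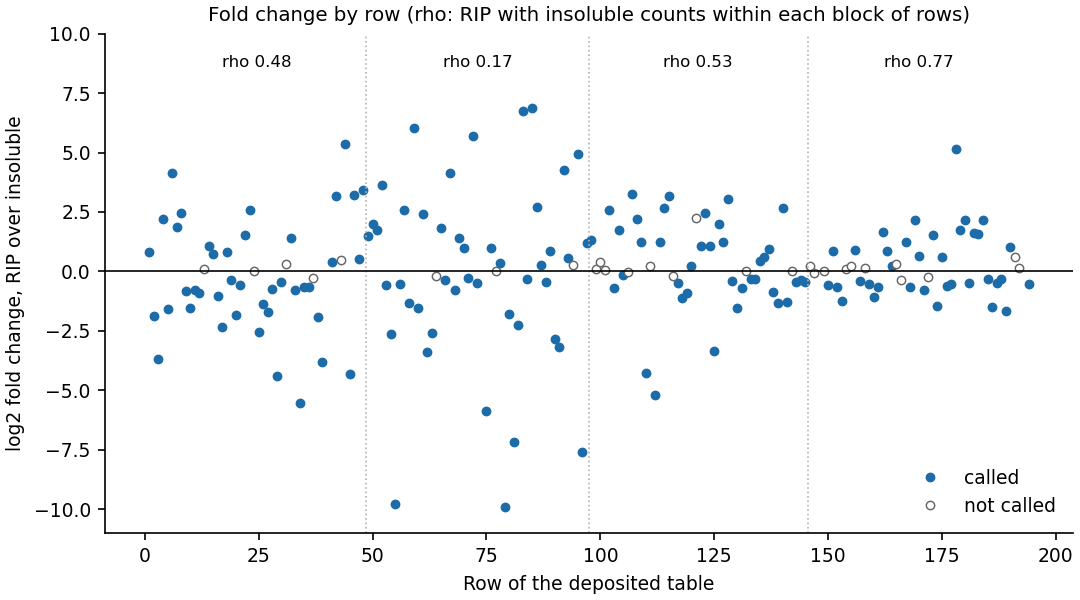
log2 fold change of RIP over insoluble (y axis) against row of the deposited table (x axis), filled where called, with dotted lines between blocks and the rho of RIP with insoluble counts in each. The spread is widest in the second block (rho 0.17) and narrowest in the last (rho 0.77).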

How the data were processed

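RNA of mouse mPFC was sequenced from 3 insoluble-fraction libraries and 3 YTHDF2 RIP libraries, and samples were grouped by the submitters' titles. The deposited values are raw counts per gene, per the file headers. The submitters' processing notes name HISAT2 2.1.0, Bowtie2 2.2.3, HTSeq 0.6.0 and mm10, with no role or order. The annotation, strand setting and the criterion for listing genes are not given in the sources used here. The deposited fold change, a linear ratio per the file headers, served only to check rows. The table's mean and p-value columns were not used.

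The 6 libraries were fitted in R 4.3.3 with edgeR 4.0.16: filterByExpr (minimum count 10, minimum total 15), TMM scaling, the quasi-likelihood test and BH adjustment over all 190 tested genes, with calls at an adjusted p under 0.05. Positive log2 fold changes mean higher in RIP. Normalised counts are scaled by TMM library size. A group with no library above 3 counts was set to that floor, which makes its fold a lower bound. The main fit was also run on simulated counts in which a minority of genes changed. Most genes differed here, so that check does not cover the scaling. The reads carry no molecular identifiers and may repeat molecules, so counting errors are minimum errors.

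All 194 identifiers matched GENCODE M21 (GRCm38), 189 with the same symbol. It gave positions, transcript sequences and the share of 50-base words found in no other gene. Columns of the overexpression table were used only to compare insoluble replicates. Insoluble replicates 2 and 3 differed beyond counting error over all genes of the series (chi-square p = 0.0457) but not over the RIP table's genes (p = 0.0812). They were counted separately, and summed as an alternative.

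Members and lists were chosen with earlier results of these data known. Named genes were the 8 highest and 8 lowest called genes with groups that did not overlap, the called members of each list other than predicted transcripts, and Opa1 and Fis1. Lists were matched by the symbols in the table, and some genes of the table are not reported here. Alternatives were DESeq2 1.42.0, other scalings, no filter, a replicate block, a fold minimum, leaving out libraries, and leaving out genes with shared sequence.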

Additional observations from a re-analysis of the deposited data

How the results depend on the processing

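Against 162 calls, edgeR gave 164 with upper-quartile scaling, 162 with library totals alone (84 higher and 78 lower), 163 without a filter and 138 of 166 after leaving out genes under 50% unique words, and DESeq2 gave 158. Requiring a change of 1 or more on the log2 scale left 98 calls, by construction. Fits that each left out 1 library gave from 156 to 165. With alternatives chosen after seeing the data, 161 genes were called without the 3 genes with 1 aberrant RIP library and 162 with insoluble replicates 2 and 3 summed. Same-numbered libraries did not deviate together (correlations of 0.0912, -0.0772 and -0.207), and the fit with a replicate block called 160 genes. Of 50 named genes, 48 kept direction and call in each count fit that included them, the fold minimum aside, under which 15 lost their call. The fit on genes with unique words held 40 of the 50, and the fit without aberrant genes left out Fis1. The exceptions were mt-Rnr1, which lost its call in several fits, and Podxl, which reversed to -0.106 under upper-quartile scaling. The cause was not tested. RIP counts under about 10, as in Dnah6, mt-Cytb and Rps27rt, limit how large a fall can be measured: without RIP replicate 2 the fitted log2 fold change of Dnah6 moved from -9.91 to -11.6 and that of Rps27rt from -7.16 to -9.62, which is why bounds are given.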

Other observations

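Several genes outside the lists differed widely and were picked after their values were seen. Shroom4, an actin-binding regulator of cell shape, rose from 160, 191 and 159 counts to 2327, 2502 and 2438, a log2 fold change of 3.42 ± 0.09, and Ccdc153, a coiled-coil protein, rose from 276, 274 and 200 to 3401, 3123 and 2779, at 3.23 ± 0.10. Drd2, the D2 dopamine receptor of striatal neurons that also express Penk, fell from 77, 73 and 84 counts to 15, 12 and 3, a log2 fold change of -3.36 ± 0.34, while Penk was higher. These genes of striatal neurons thus took different directions. Usmg5, a small ATP synthase-associated protein, fell from 182, 145 and 129 counts to 7, 17 and 6, at -4.31 ± 0.30, and at -4.92 without RIP replicate 2. Tomm7, of the outer-membrane import channel, had a log2 fold change of -0.45 ± 0.08.

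Some listed genes are neighbours. Fendrr and Foxf1 lie next to each other on chromosome 8, and both were higher in RIP: Fendrr, a noncoding RNA, had 120, 137 and 107 counts against 500, 472 and 410, a log2 fold change of 1.51 ± 0.12. On chromosome 5, Tbx3os1, antisense to the T-box factor gene Tbx3, fell from 919, 841 and 775 counts to 209, 186 and 174, a log2 fold change of -2.56 ± 0.07. Tbx3 itself had 313, 296 and 277 counts against 294, 270 and 267, a log2 fold change of -0.50 ± 0.08. The related factors Tbx2 and Tbx1 had log2 fold changes of -0.54 ± 0.06 and -1.66 ± 0.27. Miat, a long noncoding RNA of nuclear bodies, fell by 1.85 ± 0.09 on the log2 scale.

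Snhg11, a small nucleolar RNA host gene, was not called in all libraries. Its counts were 255, 186 and 168 in the insoluble libraries and 47, 479 and 428 in RIP. It was called at 0.79 without RIP replicate 1 (edgeR BH-adjusted p = 0.000547).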
